A study of Mus musculus and Homo sapiens with 33 samples.

Results

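The E2F and DP transcription factors were followed in RNA-seq of KPL cells, which were grown from mouse lung adenocarcinoma, with and without treatment meant to remove Lin9. All 10 genes named for the family were taken from the count matrix by symbol, E2f1 to E2f8 and the DP partners Tfdp1 and Tfdp2, out of 38924 gene identifiers, and all 10 passed the filter on low counts that left 13355 genes. There were 3 control libraries, named EtOH (ethanol), and 3 libraries of cells given 4-hydroxytamoxifen (4-OHT) for 72 hours, with the dose labelled 10 nm. By the labels this treatment deletes Lin9, whose protein belongs to the MuvB core, but they do not describe the Lin9 allele, the recombinase or the other alleles that both groups carry, nor whether the line is 1 clone. No library of cells that keep Lin9 under 4-OHT was analysed here, so the deletion and the drug itself cannot be told apart. Nothing in the labels says that the libraries come from separate cultures, so the p-values measure only how these libraries differ, and that spread may be technical.

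E2F proteins bind promoters of genes for the cell cycle, most of them as a pair with a DP protein. E2F1, E2F2 and E2F3 are best known as activators at entry into S phase, E2F4 and E2F5 as repressors that recruit the pocket proteins of the RB family, E2F6 as a repressor without a pocket-protein site, and E2F7 and E2F8 as atypical repressors that bind DNA without DP. E2F4 or E2F5, with a DP protein and a pocket protein, joins the MuvB core that contains LIN9 to form the DREAM complex, which silences cell cycle genes in resting cells. In dividing cells the same core joins B-MYB and FOXM1 at mitotic genes, and its LIN54 subunit reads a DNA element called the CHR.

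Library totals lay between 5859826 and 5913942 reads. Lin9 had 156, 124 and 159 reads in control and 108, 107 and 101 in 4-OHT libraries, 71.1% of control after scaling, in a whole-gene count that also takes reads outside a deleted part. The epithelial keratin and adhesion markers were abundant, with 36703 to 37135 reads for the list of 7 in control and 36228 to 37296 in 4-OHT libraries. By the edgeR test used below, 3 of the 7, Epcam, Krt7 and Cdh1, were themselves lower after 4-OHT, against 5.17% of all genes tested. In that test 0 of the 7 were higher, against 4.61%. Of the 6 alveolar and lung lineage markers, which summed to 86 to 93 reads in control and 79 to 88 in 4-OHT libraries, the surfactant gene Sftpc and the alveolar protease gene Napsa were listed at 0 in every library, while Lamp3 had 46 to 57 reads and the lineage factor gene Nkx2-1 had 25 to 46. The 6 fibroblast markers summed to 43 to 57 reads in control and 33 to 50 in 4-OHT libraries, the 6 leukocyte markers to 20 to 55 and 32 to 39, and the 5 endothelial markers to 47 to 60 and 50 to 53. Dcn and Lum of fibroblasts and Cd3e of T cells were at 0 or 1 read, whereas Col1a1 had 26 to 47 reads, Pdgfra 6 to 16, and the myeloid genes Itgam 11 to 24 and Cd68 6 to 24. A marker listed at 0 is not read as absent, since some genes that dividing cells use, such as Cdt1, were also listed at 0. The choice of these markers, and of Cdh1, was made with their values in view. The part of other cells in the results was not tested.

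Promoter sequence was available from RefSeq (GRCm38.p6) for 8 of the 10 genes, in 12 windows of 300 bases, and not for E2f4 and E2f5. The windows were searched on both strands for the E2F site, spelled as TTTGGCGC, TTTCCCGC, TTTGCCGC or TTTCGCGC, and for the CHR, spelled as TTTGAA or TTCGAA. An E2F site was present in 5 windows, of 4 members, and in 2.26% of all 32851 windows. The Tfdp1 windows overlap and hold the same site, which is counted in both. A CHR was present in 3 windows, of 3 members, and in 19.2% of all windows. Of 52 windows of the E2F target genes used further on, 36.5% held an E2F site and 19.2% a CHR. These are matches of letters and not measured binding. The sequences below show the 250 bases before the start site for the member that fell most (E2f8), for its closest relative (E2f7) and for E2f3, which has both matches close to its start, written 5′ to 3′ on the gene's strand, with matches in capitals.
E2f8, chr7:48881597-48881846, minus strand: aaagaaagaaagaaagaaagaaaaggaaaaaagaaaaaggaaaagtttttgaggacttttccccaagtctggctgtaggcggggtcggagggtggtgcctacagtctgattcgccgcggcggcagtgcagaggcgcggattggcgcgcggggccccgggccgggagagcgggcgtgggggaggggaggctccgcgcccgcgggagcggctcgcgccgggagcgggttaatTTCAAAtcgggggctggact
E2f7, chr10:110745189-110745438, plus strand: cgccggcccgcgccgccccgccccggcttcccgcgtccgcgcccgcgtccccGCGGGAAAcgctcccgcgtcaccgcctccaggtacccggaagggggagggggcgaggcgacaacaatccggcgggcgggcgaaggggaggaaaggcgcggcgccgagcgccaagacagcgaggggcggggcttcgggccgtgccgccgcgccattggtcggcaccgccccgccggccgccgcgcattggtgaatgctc
E2f3, chr13:29986064-29986313, minus strand: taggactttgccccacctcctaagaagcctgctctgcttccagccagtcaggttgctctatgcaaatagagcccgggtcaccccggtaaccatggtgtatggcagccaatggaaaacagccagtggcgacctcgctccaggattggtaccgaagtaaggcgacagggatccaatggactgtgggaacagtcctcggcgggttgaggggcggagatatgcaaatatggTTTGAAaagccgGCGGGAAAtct

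In the E2f8 window the CHR letters TTTGAA stood on the opposite strand, read here as TTCAAA, and began at -20 from the start site, which lies 477 bases inside the outermost 5′ end of the RefSeq gene. In E2f3 a CHR began at -23 on the gene's strand and an E2F site, read as GCGGGAAA, at -11. E2f7 held an E2F site at -198 and Tfdp1 one at -43, read as GCGCGAAA. The same Tfdp1 site lies at -96 from the other listed start of that gene. A start site of E2f2 carried an E2F site, TTTGGCGC, 40 bases after the start, and another start of E2f2, 8508 bases inside the gene, had TTTGAA at -31. The start site of the listed E2f1 window lies 466 bases inside the RefSeq gene, and neither this window nor those of E2f6 and Tfdp2 held these letters. A CHR match stood near a start site in E2f8, E2f3 and E2f2, and 19.2% of all windows hold one. A link between these letters and the RNA levels was not tested.

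After 4-OHT, E2f8 and E2f5 fell to 60.3% and 65.0% of control, E2f4 fell slightly, and the other 7 members were not called. With edgeR's quasi-likelihood test at a Benjamini-Hochberg adjusted p under 0.05 over all genes, 3 of 10 members were lower, against 5.17% of all genes tested, and 0 were higher, against 4.61%. DESeq2 called 2 lower, against 2.61% of its genes, and 0 higher, against 1.35%. At an unadjusted p under 0.05 edgeR had 4 members, all lower. The one with the largest p of these, E2f7, ranked only 2337 by p among the 13355 genes. At least 2337 of all genes therefore pass this looser cut-off, and their exact share was not computed. The control and 4-OHT values did not overlap for 4 members, all lower in 4-OHT, against 12.2% of all genes tested. The median log2 fold change was -0.11 over the 10 members and 0.00052 over all genes, and 8 of 10 members were below 0, as were 49.8% of all genes. Levels are given in CPM, reads divided by the scaled library size. They are not adjusted for gene length, so they compare libraries and not genes. In RNA of whole cultures, fewer cells that express a gene and less of its RNA per cell cannot be told apart.

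**Figure D1:**
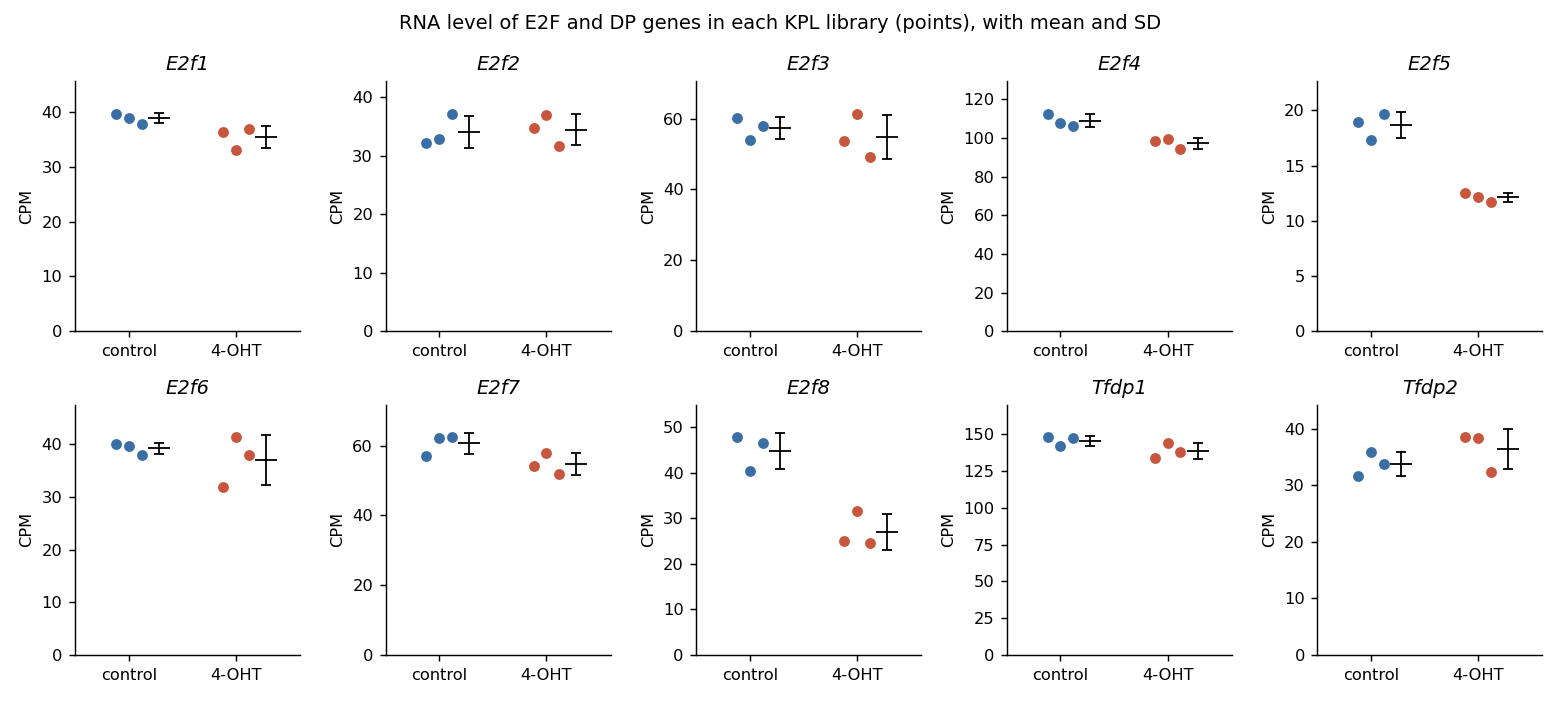
CPM (y axis, from 0) of each of the 10 genes in the 3 control and 3 4-OHT libraries, each point 1 library, with the mean and SD beside them. The groups are apart for E2f1, E2f4, E2f5 and E2f8, widest for E2f8 and E2f5, and overlap for the other 6 genes.

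E2f8 (ENSMUSG00000046179, chromosome 7, 48866429 to 48882073), an atypical repressor that switches off E2F targets late in S phase, had the largest change of the family. It was at 47.8, 40.4 and 46.5 CPM in control libraries 1 to 3 and at 24.9, 31.5 and 24.6 CPM in the 4-OHT libraries. Every 4-OHT value lay below every control value, and 4-OHT replicate 2 was the one closest to control. The mean fell from 44.9 ± 3.95 to 27.03 ± 3.92 CPM (SD, n = 3 each), which is 60.3% of control (95% interval 53.2% to 68.3%). On the log2 scale the change was -0.73 (SE 0.09) with an edgeR adjusted p of 6.7e-10, and E2f8 ranked 118 by p among the 13355 genes. In the authors' deposited table its log2 fold change was -0.73 with an FDR of 1.8e-14. A noncoding gene, Gm2788, overlaps E2f8 by 774 bases in RefSeq and had 1 to 9 reads of its own in each library. Another, LOC115486422, overlaps it by 2584 bases and has no row of its own here, so reads from it cannot be told apart from those of E2f8.

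E2f7 (ENSMUSG00000020185, chromosome 10, 110745439 to 110787384), the other atypical repressor, which pairs with E2F8 and shares targets with it, was not called. Its values were 57.2, 62.3 and 62.4 CPM in control and 54.1, 58.0 and 51.8 CPM in 4-OHT libraries. Control replicate 1 lay within the range of the 4-OHT libraries, so the groups overlapped. The log2 fold change was -0.15 with a 95% interval of -0.29 to -0.01 (edgeR adjusted p = 0.178). This interval lay wholly above that of E2f8 (-0.91 to -0.55). Both intervals rest on these libraries alone and may be too narrow if the cultures were not independent. A noncoding gene, Gm51780, overlaps E2f7 by 2630 bases in RefSeq and has no row of its own here. Reads from Gm51780 cannot be told apart from those of E2f7.

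Because both genes are read in the same library, their ratio does not depend on the scaling. There were 0.835, 0.647 and 0.745 E2f8 reads per E2f7 read in control libraries and 0.461, 0.544 and 0.475 in 4-OHT libraries. The ratio fell in mean from 0.742 ± 0.094 to 0.493 ± 0.044 (SD, n = 3 each) without overlap, a log2 difference of -0.59. The exact permutation p was 0.10, the smallest that 3 against 3 libraries allow, and 0.25 after Benjamini-Hochberg adjustment over the 5 ratios examined. With that floor the test could not pass a threshold of 0.05 whatever the values, so it does not decide whether the pair changed differently.

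E2f5 (ENSMUSG00000027552, chromosome 3, 14578602 to 14606309) encodes a repressor E2F that can take the E2F place in DREAM. It was the least counted member, with 111, 101 and 115 reads in control and 74, 72 and 69 in 4-OHT libraries, or 19.0, 17.3 and 19.7 against 12.5, 12.1 and 11.7 CPM. The 4-OHT libraries lay close together and all below control. The mean fell from 18.7 ± 1.21 to 12.1 ± 0.419 CPM (SD, n = 3 each), which is 65.0% of control (95% interval 54.4% to 77.7%). On the log2 scale it changed by -0.62 (SE 0.13), with an edgeR adjusted p of 0.00025. The authors' deposited table gives -0.63 with an FDR of 7.5e-05. The neighbouring gene Rbis, listed in the matrix as 1810022K09Rik and overlapping E2f5 by 21 bases, changed by 0.17 on the log2 scale (edgeR adjusted p = 0.484), and was not called.

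E2f4 (ENSMUSG00000014859, chromosome 8, 105297663 to 105305370), the main repressor E2F of resting cells, was at 112.6, 108.0 and 106.3 CPM in control and at 98.4, 99.7 and 94.2 CPM in 4-OHT libraries. The groups did not overlap, but the gap was small: 89.4% of control remained (95% interval 83.1% to 96.2%). The log2 fold change was -0.16 (SE 0.05), with an edgeR adjusted p of 0.034. It no longer passed when any of 5 libraries was left out (adjusted p 0.056 to 0.194), with library totals alone as the scaling (0.051) and in DESeq2 (0.290), and the authors' deposited table has it at an FDR of 0.053. Without the remaining library, control replicate 3, it stood at an adjusted p of 0.0497.

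Set against E2f4, there were 0.169, 0.161 and 0.185 E2f5 reads per E2f4 read in control libraries and 0.128, 0.122 and 0.124 in 4-OHT libraries. The E2f5 to E2f4 ratio fell without overlap from 0.172 ± 0.0127 to 0.125 ± 0.0029 (SD, n = 3 each), a log2 difference of -0.46, with the same exact permutation p of 0.10 (0.25 adjusted over the 5 ratios). Summed, the pair held 125.4 to 131.6 CPM in control and 105.9 to 111.8 CPM in 4-OHT libraries, without overlap.

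**Figure D2:**
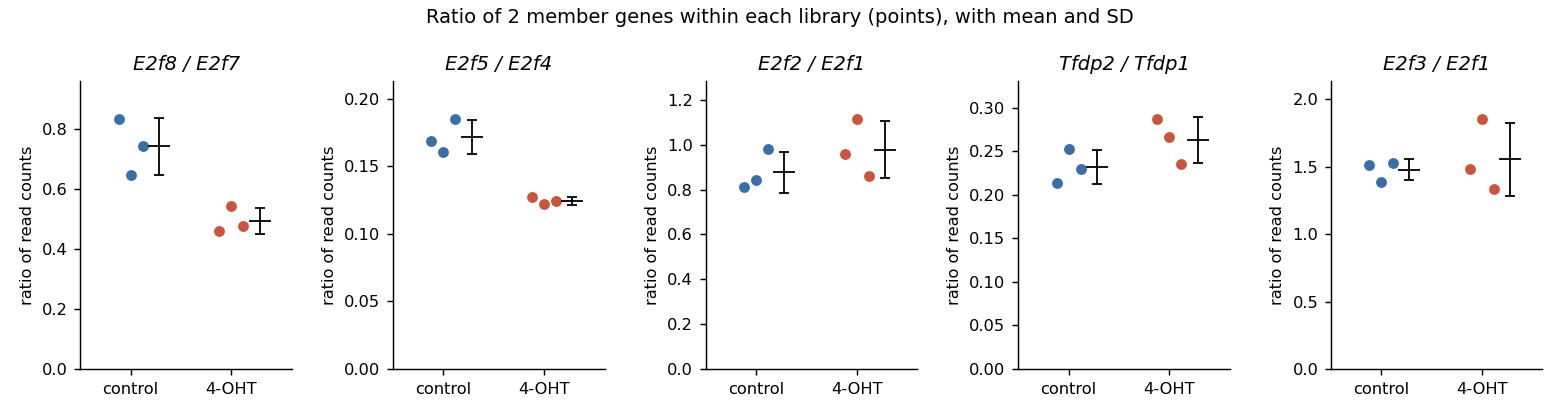
Ratio of read counts of 2 member genes within each library (y axis, from 0; points are the 3 control and 3 4-OHT libraries, with mean and SD). The E2f8 to E2f7 and E2f5 to E2f4 ratios are lower in every 4-OHT library than in any control library, and the other 3 ratios overlap between groups.

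The activators were not called. E2f1 (ENSMUSG00000027490, chromosome 2, 154559400 to 154569892), which drives S phase entry and can also induce apoptosis genes, stood at 39.7, 39.0 and 37.9 CPM in control and at 36.3, 33.1 and 36.8 CPM in 4-OHT libraries. These groups did not overlap, yet the difference of -0.13 on the log2 scale (95% interval -0.30 to 0.03) did not pass (edgeR adjusted p = 0.374). The neighbouring gene Necab3 overlaps E2f1 by 7 bases and had 0 to 9 reads in each library. E2f2 (ENSMUSG00000018983, chromosome 4, 136172274 to 136196057) was at 32.2, 32.8 and 37.2 CPM against 34.8, 36.9 and 31.7 CPM, fully interleaved, with a log2 difference of 0.02 (-0.16 to 0.19). E2f3 (ENSMUSG00000016477, chromosome 13, 29906575 to 29986064), whose long and short forms from separate promoters share one count here, was at 60.1, 54.1 and 57.9 CPM against 53.8, 61.4 and 49.0 CPM. Its highest and its lowest value both came from 4-OHT libraries, and the log2 difference was -0.07 (-0.21 to 0.07). The intervals leave room for falls of E2f1 to 81.1%, of E2f3 to 86.4% and of E2f2 to 89.6% of control. They lay wholly above the intervals of E2f8 (-0.91 to -0.55) and E2f5 (-0.88 to -0.36) on the log2 scale. All these intervals rest on these libraries alone and may be too narrow if the cultures were not independent.

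E2f6 (ENSMUSG00000057469, chromosome 12, 16810909 to 16826752), the E2F of the variant Polycomb complex PRC1.6, was at 40.1, 39.7 and 38.1 CPM in control and 31.9, 41.3 and 38.0 CPM in 4-OHT libraries. Control varied by 2.71% of its mean and 4-OHT by 12.9%, with replicate 1 as the low value. The log2 difference was -0.08 (95% interval -0.25 to 0.09, edgeR adjusted p = 0.660), and without 4-OHT replicate 1 it was 0.02. None of the 12 PRC1.6 partner genes on the list was called, against 5.17% lower and 4.61% higher of all genes. So 0 of 12 is near the background. DESeq2 called 0 as well, against 2.61% lower and 1.35% higher of its genes. At an unadjusted edgeR p under 0.05, which at least 2337 of the 13355 genes pass, there was 1, Cbx3. This heterochromatin protein gene had the highest level of the list, at 245.1 ± 6.72 against 228.2 ± 3.88 CPM (edgeR adjusted p = 0.083). The 8 germline genes known to be silenced with E2F6 had 5 to 14 reads together in control and 10 to 18 in 4-OHT libraries, too few to test. Of these, 4 were listed at 0 in all 6 libraries. No level is read from a listed 0, since Cdt1, Gins2 and Tk1, which dividing cells use, were also listed so. The meiotic cohesin gene Smc1b had the most reads, with 6, 6 and 4 in control and 11, 8 and 6 in 4-OHT libraries.

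The DP partners, which all members but E2F7 and E2F8 need for DNA binding, did not pass either. Tfdp1 (ENSMUSG00000038482, chromosome 8, 13338725 to 13378448) was at 147.9, 141.8 and 147.2 CPM in control and 133.8, 144.1 and 137.8 CPM in 4-OHT libraries, overlapping through 4-OHT replicate 2. Its log2 difference was -0.07, with a 95% interval of -0.17 to 0.02 that corresponds to 89.2% to 101.5% of control (edgeR adjusted p = 0.401). Tfdp2 (ENSMUSG00000032411, chromosome 9, 96196246 to 96323646), a DP gene with many transcript forms, was the member with the highest fold change, at 31.7, 35.9 and 33.8 against 38.5, 38.5 and 32.4 CPM. That difference of 0.11 (-0.06 to 0.29) was not called (edgeR adjusted p = 0.528). A noncoding gene, Gm39408, overlaps Tfdp2 by 1777 bases in RefSeq and has no row of its own here, so its reads cannot be told apart. The Tfdp2 to Tfdp1 ratio was 0.232 ± 0.0196 in control and 0.263 ± 0.0264 in 4-OHT libraries (SD, n = 3 each; exact permutation p = 0.20, adjusted 0.33), and overlapped.

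**Figure D3:**
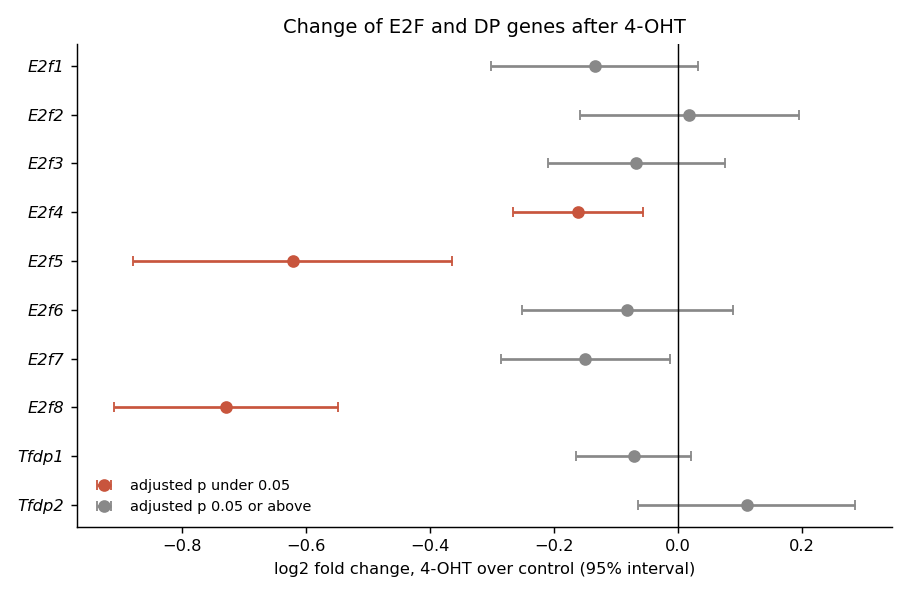
Log2 fold change of 4-OHT over control for each of the 10 genes (x axis), with its 95% interval from the edgeR fit; colour marks an adjusted p under 0.05. E2f8 at -0.73 and E2f5 at -0.62 lie apart from the other 8 genes, which range from -0.16 to 0.11.

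Summed over the family, the 10 genes took 588.1, 571.3 and 586.9 CPM in control and 518.9, 556.7 and 508.1 CPM in 4-OHT libraries. The activators E2f1, E2f2 and E2f3 together held 125.9 to 133.0 CPM in control and 117.6 to 131.4 CPM in 4-OHT libraries, with overlap. The atypical pair held 102.7 to 108.8 against 76.4 to 89.6 CPM, without overlap. Within the 4-OHT group, replicate 2 was the highest of the 3 for 7 of 10 members and replicate 3 the lowest for 7 of 10, whereas over all genes tested those shares were 32.1% and 33.2%. The part of this spread between libraries in the small differences above was not tested.

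For each called member, the genes with the most similar profile were taken as those with the smallest root mean square difference of log2 CPM relative to the control mean, over the 6 libraries and among 8748 named genes of at least 10 CPM. Nearness over 2 groups of 3 is set mostly by the size of the group difference. The named genes were picked as the smallest distances, so lying below the typical gene follows from the selection. For E2f8 they were Reep4 (root mean square difference 0.095), an endoplasmic reticulum gene, G2e3 (0.102), a ubiquitin ligase gene, and Pck2 (0.103), a mitochondrial enzyme gene, against 0.542 for the typical candidate gene. Reep4, G2e3 and Pck2 were all highest in replicate 2 among the 4-OHT libraries, as was E2f8. In these libraries Reep4 was at 25.8, 29.2 and 25.1 CPM, G2e3 at 38.2, 39.6 and 36.1 CPM and Pck2 at 45.3, 52.6 and 49.7 CPM. For E2f5 they were the mitotic kinase gene Cdk1 (0.034), the kinetochore gene Cenpl (0.044) and Bora (0.051), which encodes an activator of Aurora A; the typical candidate gene was 0.443 away. For E2f4 they were the adaptor gene Shc1 (0.021), Procr (0.023) and Pxdn (0.023), against 0.155 for the typical gene.

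Among the control genes of the pathway, 7 of 21 were lower and 0 higher, against 5.17% and 4.61% of all genes. The list holds genes for pocket proteins, cyclins, cyclin-dependent kinases and their inhibitors, and Skp2. DESeq2 called 4 lower and 0 higher, against 2.61% and 1.35%. Of the 7 calls, 5 held without any 1 library. The calls include the kinase-inhibitor genes Cdkn2d (log2 fold change -1.07), Cdkn2c (-0.87) and Cdkn1b (-0.18). The inhibitor genes Cdkn1a, Cdkn1c, Cdkn2a and Cdkn2b were not called. The median change of the list was -0.11 on the log2 scale, against 0.00052 over all genes. Ccnf, which encodes the cyclin F-box protein of a ubiquitin ligase that acts on E2F proteins, fell from 69.4 ± 2.92 to 29.9 ± 1.53 CPM (SD, n = 3 each), a change of -1.21 (SE 0.08) on the log2 scale. Ccna2, the cyclin A gene whose kinase switches off E2F1, fell from 162.6 ± 3.84 to 97.1 ± 4.91 CPM, a change of -0.74 (SE 0.05). The pocket-protein genes themselves were not called. Rb1 was at 6.63 ± 1.03 against 7.68 ± 0.344 CPM, Rbl1 at 59.1 ± 1.87 against 54.1 ± 3.08 CPM and Rbl2 at 22.3 ± 1.35 against 25.8 ± 1.46 CPM (edgeR adjusted p 0.241 to 0.591). These 3 were named after their values were seen. Of the 8 genes of the MuvB core and its partners, 2 were lower and 0 higher in edgeR, Lin9 and Foxm1, against the same 5.17% and 4.61%. DESeq2 called 0 of them, against 2.61% and 1.35%. Lin9 is the gene that the treatment is meant to remove, so its call follows from the design and only Foxm1 bears on the rest of the list. Foxm1 (log2 fold change -0.15) did not pass when any of 4 libraries was left out, with an adjusted p up to 0.093.

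The G1/S genes that E2F proteins are known to activate were lower for 14 and higher for 0 of 49 tested, against 5.17% and 4.61% of all genes, with a median log2 fold change of -0.08. The list holds 52 genes. The other 3, the licensing factor gene Cdt1, the helicase gene Gins2 and the thymidine kinase gene Tk1, were listed at 0 in all 6 libraries and were named after this was seen. Dividing cells use these genes, and no level is read from the listed 0. Of the 14 calls, 11 held without any 1 library. DESeq2 called 9 lower and 0 higher, against 2.61% and 1.35% of its genes. Uhrf1, a factor of maintenance DNA methylation, fell from 167.1 ± 3.45 to 124.2 ± 5.29 CPM (SD, n = 3 each). Dbf4, which activates the replication kinase CDC7, was at 692, 596 and 690 reads in control and 480, 527 and 470 in 4-OHT libraries, a change of -0.44 on the log2 scale (SE 0.06, edgeR adjusted p = 3.1e-09). The largest fall of the list was -0.93, and 35 genes were not called. The list shares 4 genes with those above: Ccne1 was lower and is counted in both places (log2 fold change -0.44, SE 0.12), and Ccne2, Mybl2 and Rbl1 were not called.

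**Figure D4:**
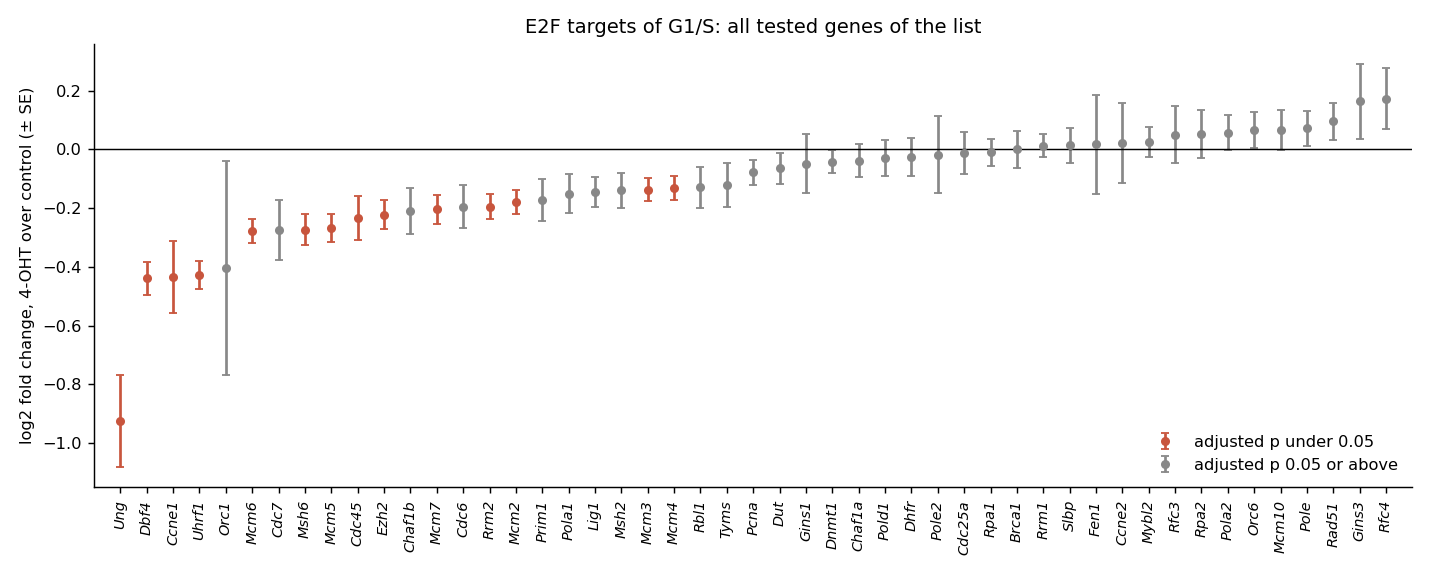
Log2 fold change of 4-OHT over control (y axis, ± SE) for the 49 tested E2F target genes of G1/S, in order of size; colour marks an adjusted p under 0.05. All 14 called genes are below 0 and the highest gene of the list is at 0.17.

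Among 7 apoptosis genes that E2F1 is known to induce, 6 were tested, 1 was higher and 0 lower in edgeR, against 4.61% and 5.17% of all genes, and also in DESeq2, against 1.35% and 2.61%. The higher one was Bcl2l11, which encodes the pro-apoptotic protein BIM, at 230, 253 and 258 reads in control and 348, 362 and 316 in 4-OHT libraries, a rise from 42.3 ± 2.61 to 57.9 ± 3.84 CPM (SD, n = 3 each; log2 fold change 0.45, SE 0.07, edgeR adjusted p = 2.1e-06). Its groups were well apart, while E2f1 itself was not called. The remaining 5 were not called, and Trp73 was too low to test.

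**Figure D5:**
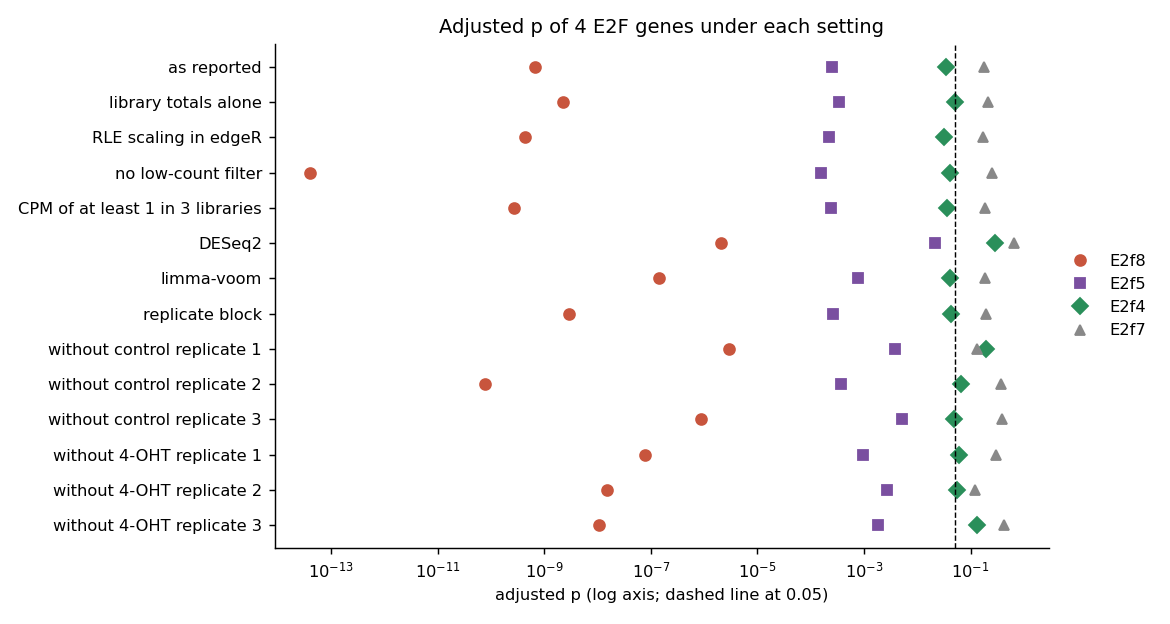
Adjusted p (x axis, log scale, dashed line at 0.05) of E2f8, E2f5, E2f4 and E2f7 as reported and under 13 other settings. E2f8 and E2f5 stay left of the line in all of them, E2f7 stays right of it, and E2f4 crosses it in 7.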

How the data were processed

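RNA of KPL cells was sequenced in 6 libraries; 27 ChIP-seq samples of the series are not analysed here. Per the labels' protocols, DNase-treated total RNA went into an NEBNext Ultra preparation, and the descriptions name polyA RNA. The matrix deposited by the authors holds raw read counts per Ensembl gene. The authors' deposited table holds log2 fold changes and log2 mean CPM with p-values and FDR, per the file headers. Per the submitters' processing notes, the tools included edgeR, bedtools 2.26.0, TopHat2 2.1.0, Bowtie2 and Bowtie 1.1.2, without roles. How reads were assigned to genes, with which annotation and on which strand, is not given in the sources used here.

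After 27 repeated lines were removed, counts were filtered with filterByExpr (minimum count 10, minimum total 15), scaled by TMM and compared in R 4.3.3 with edgeR 4.0.16 (robust quasi-likelihood F test, two-sided, no block, Benjamini-Hochberg over 13355 genes, threshold 0.05). The SE is the log2 fold change divided by the root of F. Alternatives used DESeq2 1.42.0, limma 3.58.1 (voom), other scalings and filters, a replicate block and each library left out. The procedure was tested on simulated data. Members, lists and ratios were chosen with earlier results of these data known. Named genes were all members, the 2 list genes of smallest p among those called (or the highest in CPM), Lin9 and the 3 nearest profiles per called member; genes shared by 2 lists and overlapping genes were named as such, and any other gene, markers included, was named with its values in view.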

Additional observations from a re-analysis of the deposited data

How the results depend on the processing

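E2f8 and E2f5 stayed lower with an adjusted p under 0.05 in all 13 alternatives, with log2 fold changes of -0.86 to -0.67 and -0.67 to -0.58, and none of the 7 members without a call gained one. The number of members called lower was 2 or 3 and the number called higher 0 throughout; leaving out each library in turn gave 2 to 3 lower members and 11 to 14 lower E2F targets. DESeq2 called 9 E2F targets lower instead of 14, against 2.61% of all its genes instead of 5.17%. Differences near 0 changed sign with the library left out, so that E2f2 lay between -0.034 and 0.086, E2f3 between -0.16 and 0.0031 and E2f6 between -0.17 and 0.016; the cause was not tested. With the replicate number as a block, 3 members and 14 targets were lower and 0 higher, and over all genes 665 were lower and 579 higher instead of 691 and 616. The labels give no pairing, the deviations of same-numbered libraries correlated at -0.0097, 0.0096 and -0.026, and not every library correlated best with its own number. Levels were not ordered by gene length, planned as an alternative, because no transcript or coding lengths were used here. With 69 to 115 reads per library, E2f5 has the widest interval of the 10 members.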
